A study of Mus musculus with 6 samples.

Results

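Titin (Ttn), nebulin (Neb), the Z-disc proteins Ldb3, Actn2 and Actn3, the M-band proteins Myom1 and Myom2, and the myosin-binding proteins C Mybpc1 and Mybpc2 were followed as the 9 scaffold genes of the sarcomere. They were listed by gene symbol, and each symbol matched 1 of the 55536 gene identifiers in the count files. All 9 passed the filter on low counts, which kept 22404 genes. RNA was sequenced from satellite cells, the stem cells of skeletal muscle, in 3 control samples and 3 cKO samples. Control mice were Pax7CreErt2;Hira fl/+ and cKO mice were Pax7CreErt2;Hira fl/fl, all adult males of 8 to 12 weeks on a C57BL/6J background. The sample labels give the control genotype as WT, and the floxed allele is named in the methods of the study. HIRA is a chaperone that places the histone variant H3.3 into chromatin, and here its floxed gene was recombined by a tamoxifen-dependent Cre driven from Pax7, the gene that marks satellite cells. The controls therefore carried the same Cre and 1 floxed allele, and both groups had received tamoxifen diet for 2 weeks, regular food for 1 week and a BaCl2 injury. Cells were sorted 5 days after injury as CD34+, ITGA7+, CD45-, TER119- and SCA1- and kept for 48 h in high serum medium before total RNA was extracted. The study calls the samples independent RNA samples and does not say whether each came from its own mouse, so p-values measure the spread between these samples, which may be partly technical.

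The sarcomere is the contractile unit of the muscle fibre, in which actin thin filaments are anchored at the Z-disc and myosin thick filaments are held in register at the M-band. Titin runs from the Z-disc to the M-band as an elastic ruler of the thick filament, and nebulin lies along the thin filament and is anchored at the Z-disc. Alpha-actinins cross-link actin at the Z-disc, myomesins cross-link myosin at the M-band, and myosin-binding proteins C bind the thick filament in between. These genes are switched on as myoblasts differentiate and fuse, so cultures of satellite cells hold their RNA once some cells have begun to differentiate.

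The reads counted on genes numbered 47944477 to 63323577 a sample. For the deleted gene, Hira, 375, 348 and 341 reads were counted in control and 161, 293 and 272 in cKO. As CPM (counts per 1e6 counted reads of the sample), its highest cKO value was below its lowest control value. Hira was at 6.63, 5.50 and 5.55 CPM in control and at 3.36, 4.95 and 4.87 CPM in cKO, and its mean fell by 25.4%. The study reports a larger fall by RT-qPCR of satellite cells. The log2 fold change was -0.43 (SE 0.12, adjusted p = 0.0237, edgeR's quasi-likelihood test). Leaving out control replicate 1 gave -0.34 (adjusted p = 0.104, edgeR). Leaving out cKO replicate 1, the sample with the lowest level, gave -0.29 (adjusted p = 0.0459, edgeR). Of the exonic bases of Hira, 44.7% also belong to Gm28539 on the same strand, so part of these counts cannot be assigned to Hira with certainty. Satellite cell and myoblast markers were present in every sample, with a mean of 39.3 CPM for Pax7 and 773 CPM for Myod1 in control, and so were the differentiation genes Myog at 2112 CPM and Myh3 at 10803 CPM. The RNA is that of all cells in a culture, and fewer cells expressing a gene and less of its RNA per cell cannot be told apart in it.

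The members differ greatly in length, which sets how many reads a transcript gives. Ttn (ENSMUSG00000051747) lies on the minus strand of mm10 at chr2:76703980-76982547. Its merged exons (all annotated exons of the gene joined without overlap) cover 116825 bases, the second largest total among the genes tested. Neb (ENSMUSG00000026950, chr2:52136647-52378474, minus strand) has 26582 bases of merged exon in 166 exons and ranked at position 34. The other members are shorter. Myom1 (ENSMUSG00000024049, chr17:71002633-71126856, plus strand) has 10459 bases, Myom2 (ENSMUSG00000031461, chr8:15057653-15133541, plus strand) 8853 bases and Ldb3 (ENSMUSG00000021798, chr14:34526603-34588682, minus strand) 6105 bases. Mybpc1 (ENSMUSG00000020061, chr10:88518279-88605152, minus strand) has 4527 bases, Actn2 (ENSMUSG00000052374, chr13:12269426-12340760, minus strand) 3795 bases, Mybpc2 (ENSMUSG00000038670, chr7:44501699-44524656, minus strand) 3611 bases and Actn3 (ENSMUSG00000006457, chr19:4861216-4877909, minus strand) 2901 bases.

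In raw reads the set was dominated by titin. Ttn ranked first in mean CPM among the 22404 genes tested, and it alone took 1.40%, 1.35% and 1.35% of all counts in the control samples and 0.995%, 1.01% and 1.03% in the cKO samples. The 9 genes together took 1.81% to 1.89% of counts in control and 1.41% to 1.44% in cKO. Neb ranked 30 and Actn3 155 in mean CPM, while Mybpc2 ranked 19780.

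The 9 genes were put in order of level per length, as reads per kb of merged exon and per 1e6 counted reads (RPKM). On this scale Actn3, the alpha-actinin of fast fibres, had the highest level of the 9 genes in control, with 217 ± 10.03 RPKM (SD, n = 3). Ttn followed with 117 ± 2.60 RPKM and Mybpc1, the slow-type myosin-binding protein C, with 108 ± 1.83 RPKM. Neb had 83.0 ± 2.82 RPKM. The M-band gene Myom2, which encodes M-protein, had 63.3 ± 2.56 RPKM, the Z-disc alpha-actinin Actn2 58.2 ± 1.97 RPKM and the Z-disc adaptor Ldb3 52.4 ± 0.588 RPKM. Myom1, the myomesin found across striated muscles, had 28.9 ± 0.627 RPKM, and Mybpc2, the fast-type myosin-binding protein C, had 0.0935 ± 0.0473 RPKM. In control every gene in this order was separated from the next in all samples. In cKO the order was Actn3, Mybpc1, Ttn, Neb, Myom2, Actn2, Ldb3, Myom1 and Mybpc2, where the samples of Mybpc1 (92.1 ± 3.65 RPKM) overlapped those of Ttn (86.6 ± 1.65 RPKM) and the samples of Myom2 overlapped those of Actn2. The order of the middle genes also depended on the length used. With the number of 75-base windows that lie inside a single exon as the length, the order in control was Actn3, Mybpc1, Neb, Ttn, Actn2, Myom2, Ldb3, Myom1 and Mybpc2, where the samples of Neb overlapped those of Ttn. With the longest transcript as the length, the order was that of merged exons in control except that Myom2 stood above Neb, and the samples of Ttn overlapped those of Mybpc1.

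**Figure D1:**
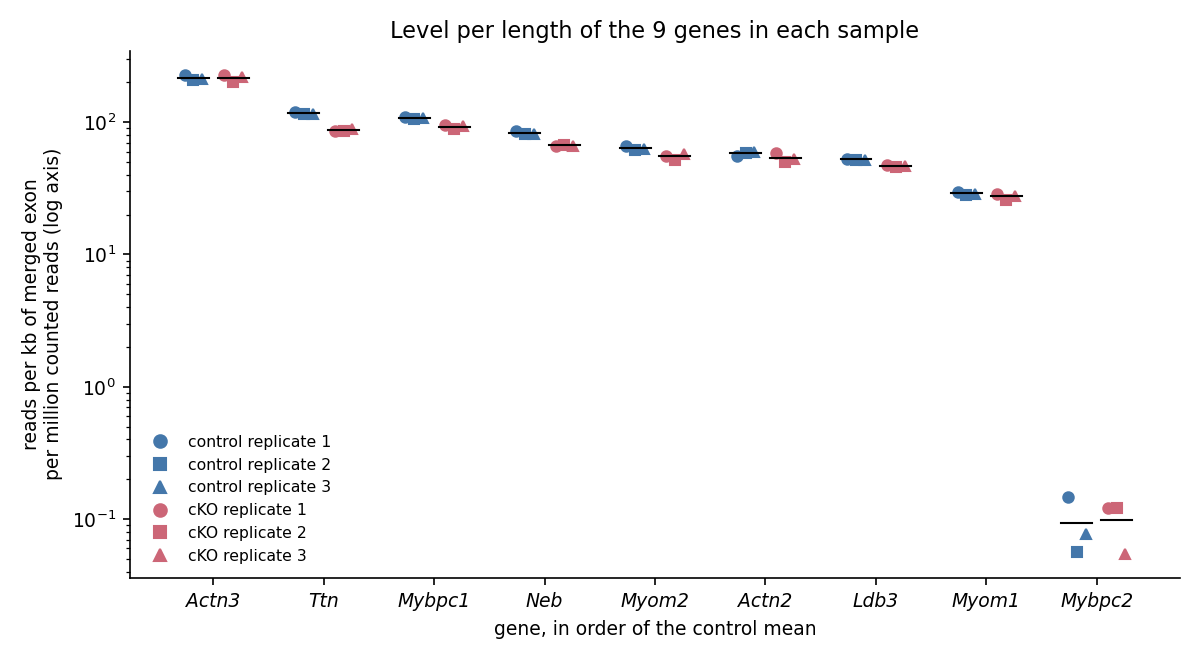
Level of the 9 genes in each of the 6 samples, in RPKM on a log axis, with points for samples and black lines for the means of 3. Actn3 lies highest in both groups at 217 and 216 RPKM, and Mybpc2 lies below 0.2 RPKM in every sample.

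An aligner that does not split reads can leave out reads that cross an exon junction, and the members differ in how many could be lost. The reads lost were not measured, and the shares below count windows of the annotation. Of the 75-base windows of the longest transcript, 23.8% crossed a junction in Ttn, 51.3% in Neb, 18.1% in Ldb3, 45.2% in Myom1, 48.6% in Myom2, 50.1% in Actn2, 50.2% in Mybpc1, 52.3% in Actn3 and 54.1% in Mybpc2. The median over the genes tested was 9.37%. Where the transcripts of a gene are the same in both groups, a loss at junctions lowers both alike, and it bears on the order of the genes.

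Between groups, Ttn had the lowest log2 fold change of the called members. Differences in the size of the fall between members were not tested. In CPM, Ttn was at 14032, 13476 and 13541 in the control samples and at 9948, 10078 and 10326 in the cKO samples. The groups did not overlap, and the difference between their means was many times the spread within either group. The mean fell by 26.1%, from 13683 ± 304 to 10117 ± 192 CPM (SD over 3 samples each), and the fit gave a log2 fold change of -0.46 (SE 0.03, 95% interval -0.53 to -0.39, adjusted p = 8.58e-08, edgeR's quasi-likelihood test over 22404 genes). Only 2.59% of the genes tested had a lower log2 fold change.

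Neb, the thin filament ruler, moved in the same direction. It was at 2291, 2169 and 2155 CPM in control and at 1770, 1801 and 1765 CPM in cKO, again with no overlap. Its mean fell by 19.3%, from 2205 ± 75.0 to 1779 ± 19.6 CPM, with a log2 fold change of -0.33 (SE 0.03, 95% interval -0.40 to -0.27, adjusted p = 2.48e-06, edgeR).

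Of the genes of the thick filament and the M-band, Mybpc1 and Myom2 fell and Myom1 did not pass the test. Mybpc1 was at 496, 480 and 491 CPM in control and at 431, 399 and 420 CPM in cKO. The groups did not overlap, and the log2 fold change was -0.25 (SE 0.03, 95% interval -0.33 to -0.18, adjusted p = 0.000108, edgeR). Myom2 was at 586, 544 and 551 CPM in control and at 492, 460 and 512 CPM in cKO. These groups were also apart, with a log2 fold change of -0.22 (SE 0.04, 95% interval -0.31 to -0.13, adjusted p = 0.00162, edgeR). Its paralogue Myom1 had 310, 297 and 301 CPM in control and 301, 269 and 291 CPM in cKO. The samples of Myom1 overlapped, since cKO replicate 1 was level with the control samples, and its log2 fold change was -0.10 (SE 0.04, 95% interval -0.19 to -0.01, adjusted p = 0.118, edgeR). Leaving out cKO replicate 1 gave -0.14 for Myom1 (adjusted p = 0.0104, edgeR), and leaving out cKO replicate 2 gave -0.05 (adjusted p = 0.298, edgeR). Mybpc2 was near the limit of detection, at 30, 13 and 17 reads in control and 21, 26 and 11 reads in cKO. At this depth a difference was not detectable, and the 95% interval of its log2 fold change ran from -0.73 to 0.88 (adjusted p = 0.934, edgeR).

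At the Z-disc, Ldb3 fell while the alpha-actinins did not pass the test. Ldb3, a PDZ and LIM domain protein that binds alpha-actinin, was at 324, 318 and 318 CPM in control and at 288, 280 and 286 CPM in cKO. The samples within each group were close to each other and the groups were apart, so that a fall of 10.9% gave a log2 fold change of -0.19 with an SE of 0.03 (95% interval -0.25 to -0.13, adjusted p = 0.000317, edgeR). Actn2 was at 212, 223 and 227 CPM in control and at 221, 190 and 200 CPM in cKO. Here cKO replicate 1 lay among the control samples, and the log2 fold change was -0.14 (SE 0.05, 95% interval -0.24 to -0.04, adjusted p = 0.0541, edgeR). The call for Actn2 sat at the threshold, and it was lower in cKO with an adjusted p of 0.000347 without cKO replicate 1 and 0.0462 without control replicate 1 (edgeR), and 0.0245 with DESeq2. Actn3 was at 663, 609 and 616 CPM in control and at 655, 584 and 640 CPM in cKO. The groups overlapped, and the log2 fold change was -0.03 (SE 0.04, 95% interval -0.13 to 0.06, adjusted p = 0.733, edgeR). The sign of this value for Actn3 turned without control replicate 1 and without cKO replicate 2, and a p that misses the threshold does not show that its level was the same in both groups.

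**Figure D2:**
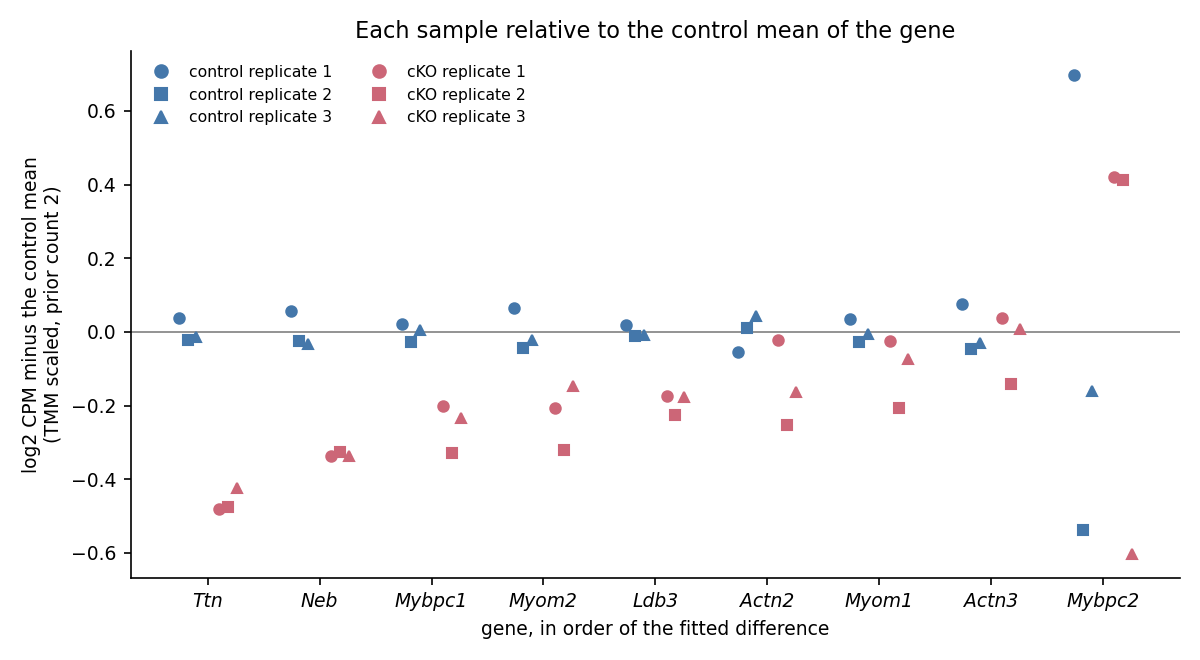
Log2 CPM of each sample minus the control mean of the gene (TMM scaled, prior count 2), with genes ordered by the fitted log2 fold change. All cKO samples lie below all control samples for Ttn, Neb, Mybpc1, Myom2 and Ldb3, and the groups overlap for Actn2, Myom1, Actn3 and Mybpc2.

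Over the set, 5 of the 9 genes were called lower in cKO and 0 were called higher at an adjusted p under 0.05 (edgeR). In the whole table of 22404 genes, 1448 (6.46%) were called lower and 2101 (9.38%) higher. Scaling by total counts alone gave 1057 lower and 2462 higher genes, which raised the share of higher genes among the calls from 59.2% to 70.0%, and the 5 members were still called lower. DESeq2 also called 0 members higher, and with edgeR 0 members had an unadjusted p under 0.05 in that direction. The cKO samples lay below all control samples in CPM for 5 of 9 members, against 11.1% of the genes tested, and above all control samples for 0 of 9, against 20.3%. The log2 fold change was below 0 in 8 of 9 members and in 50.3% of the genes tested. The median was -0.19 over the members and -0.0011 over all genes tested.

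The balance between related genes was compared within each sample as a share of reads per kb, which does not depend on how libraries are scaled. Each share was tested with a two-sided exact permutation test of 3 against 3 samples, which cannot give a p below 0.1. The p-values were adjusted over the 4 pairs compared. Nebulin made up 41.8%, 41.4% and 41.2% of the Neb and Ttn reads per kb in control and 43.9%, 44.0% and 42.9% in cKO. The cKO samples all lay above the control samples, by 2.14 percentage points on average (exact permutation p = 0.1, adjusted p = 0.2). This share was not corrected for the dependence of the change on gene length, which is described below. With that dependence removed, the log2 fold changes of Ttn and Neb were -0.32 and -0.29, against -0.46 and -0.33 without the correction. Myom2 made up 69.1%, 68.4% and 68.4% of the myomesin pair in control and 65.9%, 66.9% and 67.5% in cKO. All cKO samples lay below the control samples, and the mean difference was -1.87 points (exact permutation p = 0.1, adjusted p = 0.2). Neither of these shares could pass the threshold in this design. Actn3 made up 80.3%, 78.2% and 78.0% of the alpha-actinin pair in control and 79.5%, 80.1% and 80.8% in cKO, so the groups overlapped (difference 1.29 points, exact permutation p = 0.3, adjusted p = 0.4). Mybpc2 was at most 0.138% of the myosin-binding protein C pair in any sample, and its share differed by 0.0219 points (exact permutation p = 0.7, adjusted p = 0.7).

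**Figure D3:**
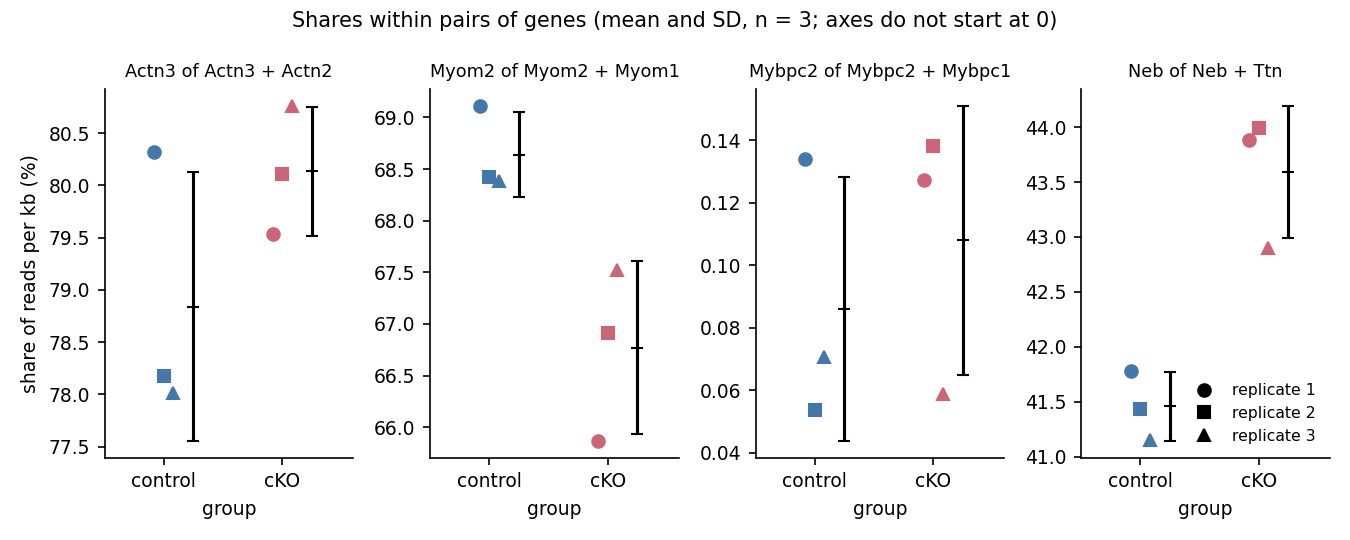
Share of the first gene in the reads per kb of each pair, in percent, for the 3 control and 3 cKO samples, with the mean and SD beside the points; the axes do not start at 0. The Neb share is higher in all cKO samples (42.9% to 44.0%) than in the control samples (41.2% to 41.8%), the Myom2 share is lower, and the other shares overlap.

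Shares within a pair rest on reads that can be told apart between paralogues. The longest identical stretch of the coding sequences, read from GENCODE M21 transcripts on mm10, was 51 bases in the alpha-actinin pair, 21 bases in the myosin-binding protein C pair and 17 bases in the myomesin pair. Each is shorter than a read of 75 bases, and no 75-base window of either gene of a pair was found in the other. The stretches are given whole and in lower case, since every base of them is shared.
Actn2 and Actn3: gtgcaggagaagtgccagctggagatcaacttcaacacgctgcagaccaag
Mybpc1 and Mybpc2: tcacaggggaaccacctccca
Myom1 and Myom2: attcaagatggaaaagc
The first lies at chr13:12291714-12291764 in Actn2 and at chr19:4867867-4867917 in Actn3, the second at chr10:88548794-88548814 in Mybpc1 and at chr7:44511835-44511855 in Mybpc2, all on the minus strand. The third lies on the plus strand, at chr17:71106297-71106313 in Myom1 and at chr8:15117690-15117706 in Myom2, and each stretch is within a single exon in both genes.

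Nebulin is built from repeated modules, and stretches of its coding sequence occur more than once. The longest of them is shown because a read that lies within it has more than 1 place in the gene. The longest exact repeat in Neb is 158 bases, which is longer than a read, and its copies start 729 bases apart in a coding sequence of 21456 bases.
Neb repeat: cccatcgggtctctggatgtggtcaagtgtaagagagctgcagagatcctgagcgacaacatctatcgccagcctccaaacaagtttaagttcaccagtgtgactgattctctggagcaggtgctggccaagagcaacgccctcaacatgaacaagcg
The copies lie on the minus strand of mm10 at chr2:52246863-52247311 and chr2:52242099-52243348, and each spans an intron. In all, 2.64% of the 75-base windows of the longest Neb transcript and 0.654% of those of Ttn occur more than once in the same transcript, so few windows of either gene have more than 1 place in it. In the longest transcripts, windows that also occur in another gene made up 0.0824% of Ttn (with Gm13938), 4.63% of Mybpc1 (with Gm48752) and 1.39% of Mybpc2 (with Gm44646), and 0% of the other 6 members. Other transcripts of Myom1 shared 134 windows with Myl12a. Of the exonic bases, 5.57% of Mybpc1 and 5.32% of Mybpc2 overlap these same genes, as do 1.98% of Myom1 and 0.388% of Ttn, and 0.169% of Neb overlap Gm13522. All of these other genes lie on the opposite strand, and the strand setting of the counting was not given in the sources used here.

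Since several members fell together, their promoters were read for motifs of muscle transcription factors. RefSeq promoter sequences (GRCm38.p6, the build of mm10) were found for 6 of the 9 members, and the table had no entry for Neb, Actn3 and Myom2. The 250 bases before the transcription start are printed for the 3 called members with an entry, in the sense of transcription, with motifs in capitals. The motifs searched were the E-box CANNTG, which is bound by MyoD and myogenin among others, the MEF2 motif, and the CArG box of serum response factor, each of which reads the same on both strands. No 2 matches overlapped in the windows printed, and for Ldb3 the outer of 2 annotated starts was taken.
Ttn promoter: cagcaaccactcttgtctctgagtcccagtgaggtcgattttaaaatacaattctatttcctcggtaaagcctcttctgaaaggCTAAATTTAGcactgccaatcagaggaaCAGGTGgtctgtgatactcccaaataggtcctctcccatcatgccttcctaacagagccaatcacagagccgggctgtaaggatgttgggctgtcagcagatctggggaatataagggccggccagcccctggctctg
Mybpc1 promoter: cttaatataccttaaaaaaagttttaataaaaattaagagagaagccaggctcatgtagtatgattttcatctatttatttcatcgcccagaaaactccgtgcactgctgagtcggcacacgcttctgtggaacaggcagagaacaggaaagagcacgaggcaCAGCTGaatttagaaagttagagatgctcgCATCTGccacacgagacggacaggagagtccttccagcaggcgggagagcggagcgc
Ldb3 promoter: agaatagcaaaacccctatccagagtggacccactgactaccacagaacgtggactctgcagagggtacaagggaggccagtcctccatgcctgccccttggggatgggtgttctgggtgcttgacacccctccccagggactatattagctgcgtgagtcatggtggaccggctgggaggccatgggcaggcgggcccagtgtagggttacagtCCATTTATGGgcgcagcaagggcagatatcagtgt
The Ttn window (chr2:76982548-76982797, minus strand) holds the MEF2 motif CTAAATTTAG 166 bases before the start and the E-box CAGGTG 138 bases before it. The Mybpc1 window (chr10:88605153-88605402, minus strand) holds the E-boxes CAGCTG at 87 and CATCTG at 57 bases before the start. The Ldb3 window (chr14:34588682-34588931, minus strand) holds the CArG box CCATTTATGG 35 bases before the start and no E-box. Among 32851 promoters of the same length, 66.2% held an E-box, 2.92% a MEF2 motif and 1.47% a CArG box, so the E-boxes are what most promoters have. The members that did not pass the test held motifs too, with 3 E-boxes in Actn2, 3 E-boxes and a CArG box in Myom1, and 1 E-box in Mybpc2. These matches describe the sequence and are not evidence of binding.

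Other proteins of the same structures were compared as 44 partner genes, of which 41 passed the filter. By edgeR, 10 of the 41 (24.4%) were called lower in cKO, 6 were called higher and 25 were not called, beside 6.46% lower and 9.38% higher of all genes tested. The share called lower was larger among genes with a mean of at least 10 CPM, as given above. The log2 fold changes ran from -0.31 to -0.14 in the genes called lower and from 0.12 to 0.72 in those called higher, and the median over the 41 genes was -0.09. In CPM, the cKO samples lay below all control samples for 12 of the 44 listed genes and above them for 9. Among all genes tested these shares were 11.1% below and 20.3% above, so the number above was near the share of all genes. The counts include Myoz3 (below) and Mybpc3 (above), which were too low to be tested. Of 17 Z-disc partners tested, 8 were lower and 2 higher. The other lists held at most 1 call in each direction: 1 lower and 1 higher of 6 nebulin family and thin filament partners and of 5 titin I-band partners, 0 lower and 1 higher of 8 M-band and titin kinase partners, and 0 of 2 assembly factors of the thick filament. Without cKO replicate 1 the number of partners called lower was 21, and without cKO replicate 2 it was 10.

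The partners that fell belong to structures from the thin filament and Z-disc to the I-band of titin. Klhl41, which stabilises nebulin, was at 544, 524 and 541 CPM in control and at 458, 419 and 447 CPM in cKO. These groups were apart, with a log2 fold change of -0.31 (SE 0.04, adjusted p = 3.26e-05, edgeR). The actin-binding Xin repeat protein Xirp1 changed by -0.29 on the log2 scale (adjusted p = 4.34e-05) and Xirp2 by -0.26 (adjusted p = 0.00655, both edgeR). Pdlim3, an alpha-actinin partner of the same domain family as Ldb3, changed by -0.28 (adjusted p = 0.000547), and the LIM protein Csrp3 by -0.27 (adjusted p = 0.00271, both edgeR). The titin-binding protease Capn3 changed by -0.22 (adjusted p = 0.00317), and filamin C (Flnc), which links the Z-disc to the membrane, by -0.18 (adjusted p = 0.00879, both edgeR). Synpo2, an actin-binding protein of the Z-disc, changed by -0.16 (adjusted p = 0.00192, edgeR). For all 8 of these genes the cKO values lay wholly below the control values.

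The 6 partners that rose are not all restricted to muscle. Fhl2, a LIM protein that binds titin and is abundant in heart, was at 29.8, 30.0 and 29.1 CPM in control and at 49.4, 50.6 and 48.8 CPM in cKO. The groups were far apart, with a log2 fold change of 0.72 (SE 0.04, adjusted p = 3.61e-09, edgeR). Actn1, an alpha-actinin of non-muscle cells, rose from 280 ± 3.61 to 370 ± 18.8 CPM (SD over 3 samples), a log2 fold change of 0.38 (SE 0.03, adjusted p = 1.65e-06, edgeR). The difference between Actn1 and the muscle alpha-actinins was not tested. Lasp1, a small and widely expressed member of the nebulin family, changed by 0.38 (adjusted p = 8.04e-06) and Pdlim5 by 0.21 (adjusted p = 9.89e-05, both edgeR). Myoz2, a calcineurin-binding Z-disc protein of slow and cardiac muscle, changed by 0.20 (adjusted p = 0.019), and the stress-responsive titin partner Ankrd1 by 0.12 (adjusted p = 0.0205, both edgeR). The adjusted p of Myoz2 and that of Ankrd1 were above 0.05 without cKO replicate 3 (0.0785 and 0.0716) and without control replicates 2 (0.0640 and 0.127) and 3 (0.0726 and 0.0753), and that of Myoz2 also without control replicate 1 (0.0584). With a smooth dependence on gene length removed within each sample, the adjusted p of Ankrd1 was 0.0695 (edgeR).

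Myom3, Mybph and Nebl, which are close relatives of members, did not pass the test. Myom3, the third myomesin, averaged 414 ± 5.58 CPM in control against 401 ± 15.3 CPM in cKO (SD over 3 samples), a difference of -0.07 on the log2 scale (adjusted p = 0.192, edgeR). Mybph, a small relative of the myosin-binding proteins C, differed by -0.10 (adjusted p = 0.31), and nebulette (Nebl), the nebulin of heart, by -0.15 (adjusted p = 0.157, both edgeR). Without cKO replicate 1, Myom3 and Mybph were called lower, with adjusted p-values of 0.0451 and 0.000848 from edgeR. In other alternative fits their adjusted p-values reached 0.426 and 0.697 (edgeR). Mybpc3, the cardiac myosin-binding protein C, had 3, 4 and 4 counts in control and 10, 5 and 11 counts in cKO and was too low to be tested.

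**Figure D4:**
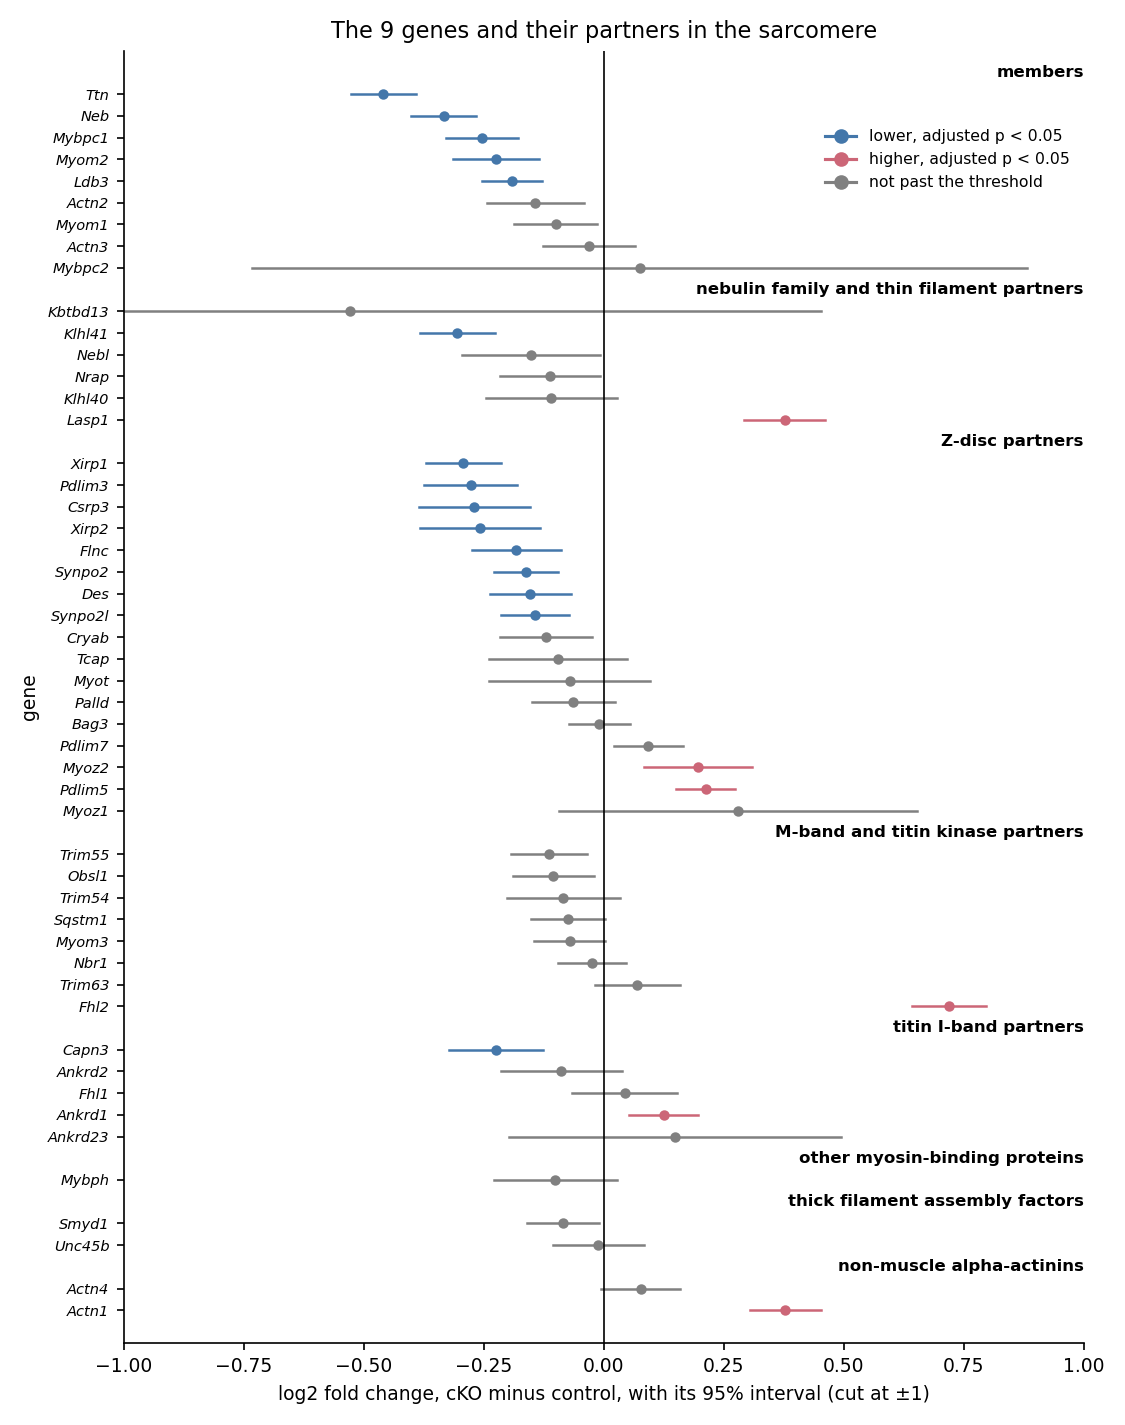
Log2 fold change of cKO over control with its 95% interval for the 9 genes and the 41 partner genes tested, grouped by list, with colours for calls by edgeR at an adjusted p under 0.05. Ttn lies lowest of the called genes at -0.46 and Fhl2 highest at 0.72, and the calls in the Z-disc list are mostly on the lower side.

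Markers of differentiation and of other cell types also differed between the groups. The summed level of 8 early differentiation markers was 20328 to 20913 CPM in control and 17589 to 19781 CPM in cKO, and 7 of the 8 were called lower, with log2 fold changes of -0.20 for Myog and -0.31 for Mef2c (edgeR). The median of this list was -0.19, which was also the median of the 9 members. For 8 satellite cell and myoblast markers the sum was 1821 to 1876 CPM in control and 1719 to 1736 CPM in cKO, with 5 called lower and 1 higher. Of 7 adult fibre markers, 6 were tested and 2 were called lower. In the opposite direction, all 10 macrophage markers were called higher, with a sum of 138 to 141 CPM in control and 292 to 342 CPM in cKO, although the sort was for cells without CD45. Fibroblast markers summed to 524 to 550 CPM in control and 780 to 872 CPM in cKO (4 of 6 tested called higher), endothelial markers to 14.7 to 16.7 and 24.3 to 29.0 CPM (4 of 6), and smooth muscle markers to 2980 to 3034 and 3254 to 3374 CPM (5 of 5). Nearly all of the smooth muscle sum was Acta2, with means of 2929 CPM in control and 3180 CPM in cKO. Its log2 fold change was 0.09, against 0.98 for Myh11 and 1.21 for Cnn1 (edgeR). Cardiac markers summed to 66.5 to 68.9 CPM in control and 95 to 101 CPM in cKO, nearly all of it Myh6, the 1 gene called higher of 2 tested. Of the other 6 cardiac markers, Nppa and Myl7 were at or under 3 counts in every sample, Nppb had 4 to 9, Gata4 5 to 10 and Tnni3 29 to 38 counts. Nkx2-5 had 3, 1 and 3 counts in control and 3, 10 and 11 counts in cKO, and its CPM were higher in every cKO sample than in any control sample. The part that any of these cell types had in the change of the sarcomere genes was not tested.

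Levels relative to Actn3, the member with the smallest difference, were compared after its values had been seen, so they describe the samples and carry no test. The ratios are of reads with no correction for length, and serve to compare samples, not levels of genes. For each Actn3 read there were 21.2, 22.1 and 22.0 Ttn reads in control and 15.2, 17.2 and 16.1 in cKO. For Neb the ratios in control were 3.46, 3.56 and 3.50, against 2.70, 3.08 and 2.76 in cKO, and for Mybpc1 0.749, 0.787 and 0.796 against 0.658, 0.682 and 0.657. These 3 ratios were lower in every cKO sample than in any control sample, and so were those of Ldb3, Myom2 and Myom1. The ratios of Actn2 and Mybpc2 overlapped between the groups.

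The longest members were also those that fell most, and the change was therefore set against gene length. Among the 22404 genes tested, the share called lower was 3.92% below 2 kb of merged exon, 5.71% from 2 to 5 kb, 9.11% from 5 to 10 kb, 14.8% from 10 to 20 kb and 25.5% of the 110 genes at 20 kb and over. The share called higher did not follow the same course, at 4.36%, 10.9%, 13.7%, 13.6% and 10%. Among the 89 genes of 20 kb and over with a mean of at least 10 CPM, 28 were called lower and 7 higher, and their median log2 fold change was -0.07 against -0.01 in the classes below 10 kb. Ttn (-0.46) and Neb (-0.33) had the lowest values of these 89 genes, but Zbtb20 (-0.32), Unc13b (-0.31) and Macf1 (-0.30) lay close to Neb, and these 3, named after their values were seen, were also called lower by edgeR. D10Wsu102e, the 1 gene with more merged exon than Ttn, differed by 0.07 on the log2 scale (adjusted p = 0.234, edgeR). When a smooth dependence on length was removed within each sample before the fit, the values of the members that fell most lay closer together. The log2 fold change was then -0.32 (SE 0.03) for Ttn, -0.29 (SE 0.03) for Neb and -0.28 (SE 0.04) for Mybpc1. All of these were still called lower. The correction of Ttn rests on the sparse end of the length range, where only 1 gene tested had more merged exon. Among the shorter members the values without this correction did not follow length, at -0.25 for Mybpc1 with 4.53 kb and -0.10 for Myom1 with 10.5 kb. That difference was not tested. Whether the dependence on length lies in the RNA or in the libraries was not tested.

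**Figure D5:**
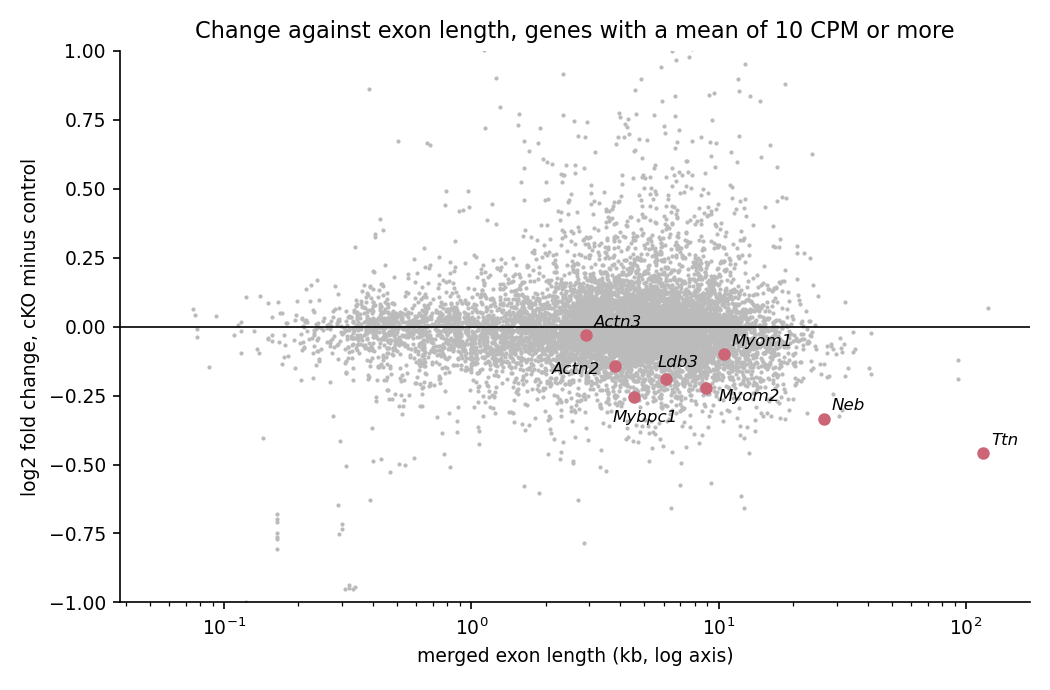
Log2 fold change of cKO over control against merged exon length in kb (log axis) for the 10481 genes with a mean of at least 10 CPM, with 8 members in colour; 60 genes lie outside the plotted range. At the long end Ttn lies below the other genes and Neb at their lower edge, and the shorter members lie within it between -0.25 and -0.03.

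The genes with the pattern most like that of Ttn over the 6 samples were ranked by the root mean square difference of their log2 CPM, each centred on its own mean, among 10480 other genes with a mean of at least 10 CPM. The nearest were Tnfrsf19 (0.0403), St8sia2 (0.0443), Gm536 (0.0451), Ogn (0.0469) and Zfp365 (0.0511), where the spread of Ttn itself was 0.231. Their log2 fold changes lay between -0.50 and -0.38. Of the other members, Neb ranked 17 and Mybpc1 152, followed by Myom2 at 254 and Ldb3 at 377, whereas Actn3 ranked 4467.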

How the data were processed

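Raw counts per gene were deposited by the authors for 6 samples, 3 control and 3 cKO. Per the labels, 400 ng of total RNA was depleted of ribosomal RNA, stranded libraries were made and single-end reads of 75 bases were sequenced. The authors aligned reads to mm10 with Bowtie2 2.3.4.2, which does not split reads over exon junctions, and counted them with featureCounts 1.6.3. The strand setting, the treatment of reads matching several genes and the annotation release are not given in the sources used here. The authors also deposited normalized values and a DESeq2 2.11.40.6 comparison with fold changes and p-values; neither was used.

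All 55536 identifiers were found in GENCODE M21. Genes kept by filterByExpr (22404) were scaled by TMM and tested with edgeR 4.0.16 in R 4.3.3 (quasi-likelihood test, genotype as the only term, Benjamini-Hochberg adjusted p under 0.05). The common coefficient of variation was 3.92%. On simulated counts for this comparison (22404 genes, 200 changed), 91% of log2 changes of 0.5 and 100% of those of 1 were recovered, and 9.48% of calls were false. This share of false calls was above what the threshold of 0.05 aims at. The fitted changes of the members were all smaller than 0.5, and recovery of such changes was not simulated. CPM are counts over the total of a sample. No 2 replicates agreed within sampling noise, so each was counted. Same-numbered samples did not deviate together (correlations of -0.0145 to -0.0045), so the numbers were not used as pairs.

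The members, partner lists, marker lists and tests were chosen with earlier results of these data known. All members were named, with the partner genes called in each direction up to the 8 with the largest change, the closest relatives of members, Hira, and the 5 genes most like Ttn. A gene of the fixed partner lists is not reported here and was left out of their counts. Alternatives were DESeq2 1.42.0, other scalings and filters, a length offset, a replicate block, other lengths and leaving out each sample. Summaries used Python 3.11.15 with pandas 2.3.3 and scipy 1.17.1.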

Additional observations from a re-analysis of the deposited data

How the results depend on the processing

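The falls of Ttn, Neb, Ldb3, Myom2 and Mybpc1 kept their direction and an adjusted p under 0.05 in all 13 alternative fits each, with log2 fold changes from -0.48 to -0.32 for Ttn and from -0.21 to -0.17 for Ldb3. The number of members called lower was 5 to 7 and the number called higher 0. The sixth was Actn2, with DESeq2, with another set of size factors (RLE), with the length offset and without control replicate 1, and Actn2 and Myom1 were both called with no filter and without cKO replicate 1. Leaving out samples turned the sign of Actn3, to 0.0068 without control replicate 1 and 0.018 without cKO replicate 2, and that of Mybpc2, whose value lay between -0.19 and 0.54; the range for Actn3 was -0.066 to 0.018. The log2 fold change of Hira lay between -0.52 and -0.29 in these fits.

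The number of partners called lower was 18 with no filter on low counts and 9 to 21 with each sample left out. Of all genes, 917 to 1673 were called lower with each sample left out, and 1272 were called higher among genes with at least 10 CPM in 3 samples, where fewer genes were tested. With the replicate number as a block, 1251 genes were called lower and 1901 higher, and the number of members called lower was 5; for Actn2 the adjusted p was 0.0697 (edgeR). The cause of these shifts was not tested. Depth limited Mybpc2 among the members, and reads that may be lost at junctions limit levels between genes.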
